A study of Mus musculus with 22 samples.

Results

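The change with time in palatal mesenchyme cells given PDGFA while PI3K was inhibited was described from RNA-seq, by setting the 4 hr PDGF + LY value of each gene against its 1 hr PDGF + LY value. FPKM scales the fragments of a gene to its length and to the depth of the library. Genes above 1 FPKM at either time were kept, which gave 11661 of the 23286 entries of the table. The cells were primary mouse embryonic palatal mesenchyme (MEPM) cells from wild-type C57B/6 embryos at E13.5, passaged in culture and held overnight in 0.1% FBS. The 4 hr and 1 hr PDGF + LY groups both received 30 ng/mL PDGFA and 10 μM LY294002 and differ in the labels only by time, with 2 samples each. Inhibitors were given 30 min before the growth factor, so time with PDGFA and time with LY294002 cannot be told apart. The other groups used here were 4 hr and 1 hr PDGF + PD (30 ng/mL PDGFA with 1 μM PD325901), 4 hr and 1 hr FGF + LY and FGF + PD (50 ng/mL FGF1 and 1 μg/mL heparin with the same inhibitors, 2 samples each), and 4 hr PDGF without inhibitor (3 samples). No 1 hr group without inhibitor and no unstimulated group was analysed here.

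PDGF receptors are tyrosine kinases that, once bound by ligand, recruit phosphoinositide 3-kinase (PI3K) and also signal through RAS, MEK and ERK. PI3K activates AKT, which restrains the FOXO transcription factors, and mTOR, which promotes protein synthesis and, through the SREBP transcription factors, sterol and fatty acid synthesis. LY294002 (LY) blocks PI3K and, at similar doses, mTOR, while PD325901 (PD) blocks MEK. In the palate, PDGF signaling is known for its role in the growth and differentiation of neural crest-derived mesenchyme.

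The table holds a single FPKM for each gene in each condition, which pools its samples, so no spread between samples could be calculated and no test was possible. Genes are called higher or lower at 4 hr where the ratio of FPKM was 1.5-fold or more (0.585 or more on the log2 scale), which is a rule of size only. All 8 palatal mesenchyme markers were above the minimum, among them *Col1a2* at 2483 FPKM at 4 hr and 2626 FPKM at 1 hr, and none of the 8 was past 1.5-fold. Of 8 epithelium markers only *Krt18* passed the minimum and was lower (0.953 FPKM at 4 hr, 1.60 FPKM at 1 hr), the red blood cell markers stayed at or below 0.146 FPKM at 4 hr and 0.0462 FPKM at 1 hr, and the endothelium markers summed to 4.42 FPKM at 4 hr and 4.09 FPKM at 1 hr. The macrophage markers summed to 3.26 FPKM at 4 hr against 1.66 FPKM at 1 hr, and their part in the results was not tested. Of the 2 above the minimum, *Lyz2* was higher (1.41 FPKM at 4 hr, 0.633 FPKM at 1 hr). *Cd14* lay within 1.5-fold (1.35 FPKM at 4 hr, 0.909 FPKM at 1 hr), and *Ptprc* was at 0.0119 FPKM at 4 hr and 0.0320 FPKM at 1 hr. *Acta1* was the 1 muscle marker above the minimum (19.2 FPKM at 4 hr, 11.5 FPKM at 1 hr), and *Stmn2* led the neuron and glia markers (69.3 FPKM at 4 hr and 62.2 FPKM at 1 hr) while *Elavl3* was listed at 0 at both times. *Gapdh*, which every cell uses, was listed at 0 at 4 hr and at 0.271 FPKM at 1 hr, so a value at or near 0 in this table cannot be read as absence of the transcript. In bulk samples, fewer cells of a type and less RNA per cell cannot be told apart.

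Sex-linked transcripts differed between the times. *Xist*, the RNA of the inactive X chromosome, was at 4.69 FPKM at 4 hr against 25.9 FPKM at 1 hr, 5.53-fold lower. The 4 Y chromosome genes were all higher at 4 hr, *Uty* by 2.59-fold, *Kdm5d* by 2.10-fold, *Eif2s3y* by 1.83-fold and *Ddx3y* by 1.59-fold. The FPKM differed in the same directions in the other 3 comparisons of 4 hr with 1 hr, although *Eif2s3y* lay within 1.5-fold under FGF + LY and *Eif2s3y*, *Kdm5d* and *Uty* did so under FGF + PD. *Xist* was 4.13-fold (PDGF + PD), 7.89-fold (FGF + LY) and 7.97-fold (FGF + PD) lower. The median log2 ratio of the 406 genes tested on the X chromosome was -0.10, and that of the 11251 entries not placed on X or Y was -0.0015. The latter include 90 entries with no symbol and 138 with several, which were not placed on any chromosome. The part of these sex-linked differences in the results was not tested, and time and the embryos sampled cannot be told apart.

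**Figure D1:**
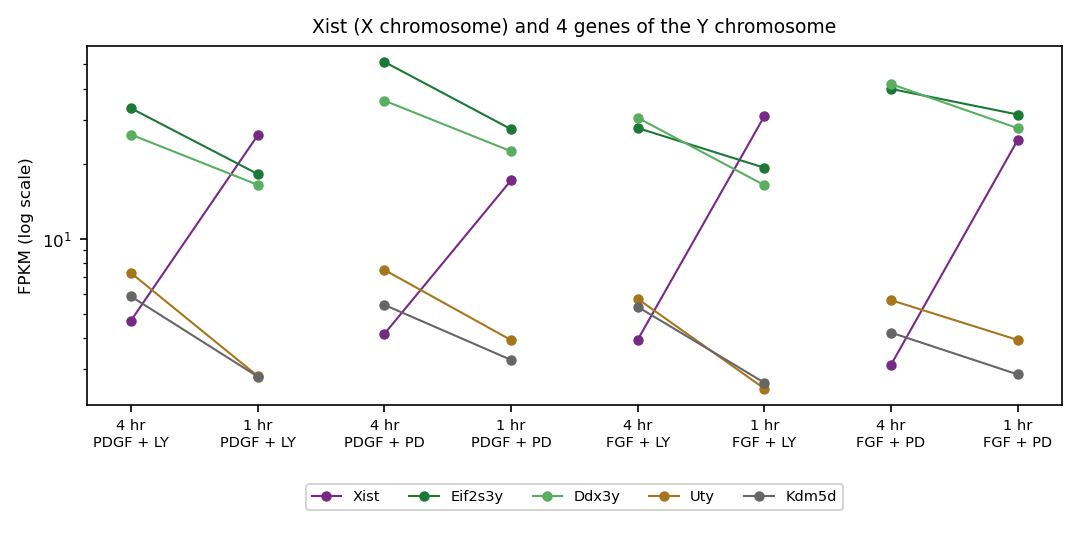
FPKM (log scale) of *Xist* and of 4 genes of the Y chromosome in 8 conditions, each point 1 pooled value and each line joining the 4 hr and 1 hr columns of a treatment. *Xist* had its lower FPKM and all 4 Y chromosome genes had their higher FPKM at 4 hr in each of the 4 treatments, with *Xist* at 4.69 FPKM at 4 hr and 25.9 FPKM at 1 hr under PDGF + LY.

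Under PDGF + LY, 573 of the 11661 genes (4.91%) were higher and 642 (5.51%) were lower at 4 hr, so that 10.4% were past 1.5-fold and 10446 lay within it. The median log2 ratio was -0.01, and the lower and upper quartiles were -0.20 and 0.20. Most calls were of weakly expressed genes, since among the 8853 genes with at least 5 FPKM at either time only 203 were higher and 269 lower. Differences of 3-fold or more were found for 37 genes that were higher and 60 that were lower. At the edge of the minimum, *Map3k8* was just inside (0.869 FPKM at 4 hr, 1.00014 FPKM at 1 hr) and *Fam81a* just outside (0.548 FPKM at 4 hr, 0.999661 FPKM at 1 hr). Genes above 1 FPKM at only 1 of the times passed through the column where they were higher, so the minimum set their direction. By the same rule 8.27% of genes were higher and 3.63% lower with time under PDGF + PD, 11.4% and 12.2% under FGF + LY, and 4.44% and 9.92% under FGF + PD.

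**Figure D2:**
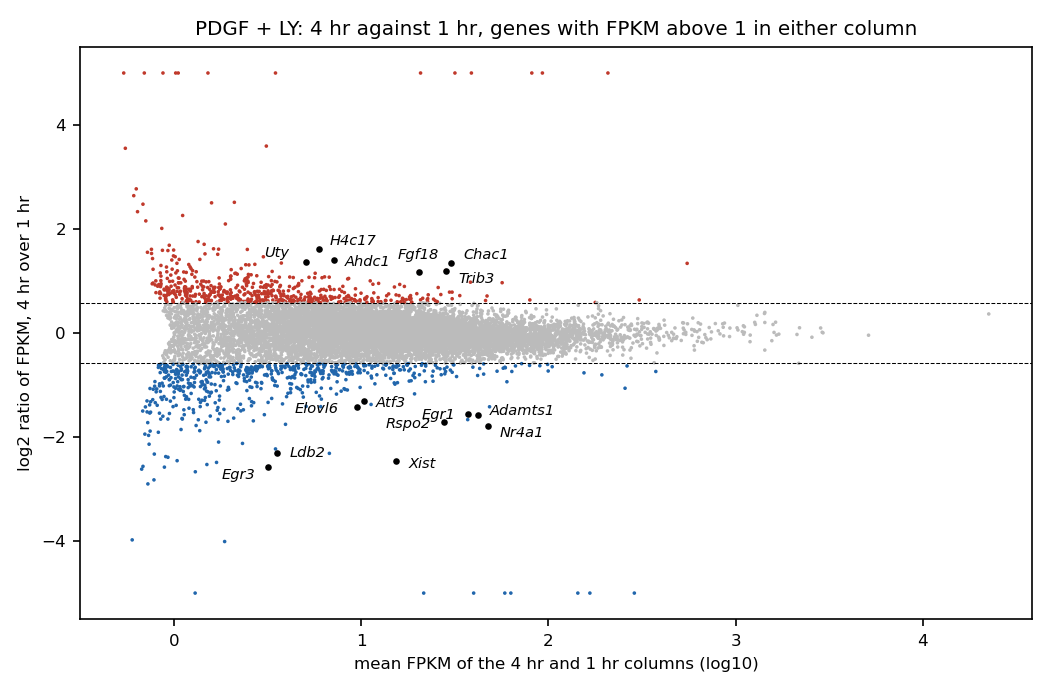
Log2 ratio of FPKM, 4 hr over 1 hr, against the mean FPKM of the 4 hr and 1 hr columns (log10) for the genes tested under PDGF + LY. Each point is a gene, red where it was higher at 4 hr by 1.5-fold or more and blue where it was lower, with ratios limited to 5 in size and dashed lines at 1.5-fold. Black points are named genes, with *Egr3* at -2.57 and *Chac1* at 1.35.

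Immediate early genes are switched on by growth factors within minutes and then decay. Of those tested, 4 of 9 AP-1 genes and 8 of 23 genes of the EGR, NR4A and KLF list were lower at 4 hr, and none of either list was higher, where 5.51% of all genes were lower and 4.91% higher. With a minimum of 5 FPKM at either time, 2 and 5 were lower. *Fosb*, *Fosl1*, *Egr2*, *Egr3* and *Arc* passed the minimum of 1 FPKM through the 1 hr column only. Promoter windows of 3 of the lower genes are shown because they carry TGACG, a short form of the site bound by CREB and ATF factors, in capitals on either strand. They are the 250 bases before the start in RefSeq (GRCm38.p6), 5′ to 3′ on the strand of the gene, from chr12:85473640-85473889 (plus strand, *Fos*), chr15:101266596-101266845 (plus strand, *Nr4a1*) and chr1:191183334-191183583 (minus strand, *Atf3*).
Fos: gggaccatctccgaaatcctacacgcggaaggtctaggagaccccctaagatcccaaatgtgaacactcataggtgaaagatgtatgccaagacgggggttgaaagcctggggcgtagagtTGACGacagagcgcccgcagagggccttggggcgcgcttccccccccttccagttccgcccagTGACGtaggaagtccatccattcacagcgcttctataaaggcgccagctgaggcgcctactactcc
Nr4a1: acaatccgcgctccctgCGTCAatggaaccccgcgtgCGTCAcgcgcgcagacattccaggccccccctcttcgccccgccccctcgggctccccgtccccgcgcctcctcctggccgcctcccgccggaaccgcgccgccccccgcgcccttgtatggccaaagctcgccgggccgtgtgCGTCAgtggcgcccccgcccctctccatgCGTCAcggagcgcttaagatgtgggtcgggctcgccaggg
Atf3: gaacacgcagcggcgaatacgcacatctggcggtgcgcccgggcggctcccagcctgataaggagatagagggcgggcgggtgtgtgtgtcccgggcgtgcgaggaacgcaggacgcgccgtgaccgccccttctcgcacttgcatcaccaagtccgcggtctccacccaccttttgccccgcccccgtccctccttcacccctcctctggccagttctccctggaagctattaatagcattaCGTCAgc
TGACG was found in the windows (250 bases before to 50 after the start) of 18 of the 28 immediate early genes with a RefSeq window (64.3%), against 23.0% of all 27025 genes with one. It was found in 34.6% of sterol and fatty acid genes and 30.8% of interferon-stimulated genes with one. *Egr1*, *Egr3*, *Fosl1*, *Arc* and *Klf10* had no window. The CArG box, another motif searched, was in 3 of 19 EGR, NR4A and KLF genes and 0 of 9 AP-1 genes, against 1.81% of all genes. A match describes the letters only.

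The EGR zinc finger factors were among the lowest ratios. *Egr3* was at 0.910 FPKM at 4 hr against 5.41 FPKM at 1 hr (log2 ratio -2.57), the lowest ratio of all genes with at least 5 FPKM in the higher and 0.5 FPKM in the lower column, small RNAs and entries of several symbols aside. *Egr2* was at 0.442 FPKM at 4 hr and 2.55 FPKM at 1 hr (-2.53). *Egr1*, the most abundant of the family, was at 18.7 FPKM at 4 hr and 55.3 FPKM at 1 hr (-1.56), while *Egr4* was below the minimum, listed at 0 at 4 hr and at 0.0842 FPKM at 1 hr. Under PDGF + PD the family was low at both times, with *Egr1* at 0.746 FPKM at 4 hr and 1.05 FPKM at 1 hr. The 4 hr level of *Egr1* with PDGF alone was 11.1 FPKM.

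The orphan nuclear receptor *Nr4a1*, whose window held 4 matches, was at 21.1 FPKM at 4 hr and 73.4 FPKM at 1 hr (-1.80), and its relative *Nr4a3* at 1.86 FPKM at 4 hr and 3.59 FPKM at 1 hr (-0.95). With PD, *Nr4a1* was at 4.49 FPKM at 4 hr and 37.5 FPKM at 1 hr (-3.06). *Arc*, an activity-regulated gene best known from neurons, was at 0.914 FPKM at 4 hr and 2.96 FPKM at 1 hr (-1.70). The transcription factor *Klf10* was at 4.53 FPKM at 4 hr and 10.2 FPKM at 1 hr (-1.17), and the ADP-ribosyltransferase *Tiparp* at 13.7 FPKM at 4 hr and 24.9 FPKM at 1 hr (-0.86). The median log2 ratio of the 23 tested members of the EGR, NR4A and KLF list was -0.29.

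AP-1 is the dimer of FOS and JUN proteins, and the FOS subunits *Fos*, *Fosb* and *Fosl1* were lower, while *Fosl2* lay within 1.5-fold (-0.16). *Fos* was at 2.61 FPKM at 4 hr and 5.77 FPKM at 1 hr (-1.15). The less abundant *Fosb* was at 0.409 FPKM at 4 hr and 1.29 FPKM at 1 hr (-1.65), and *Fosl1* at 0.691 FPKM at 4 hr and 2.27 FPKM at 1 hr (-1.72). The JUN subunits, more abundant than these 3 at both times, lay within 1.5-fold. *Jun* was at 35.3 FPKM at 4 hr and 47.7 FPKM at 1 hr (-0.44), and *Junb* at 14.9 FPKM at 4 hr and 22.0 FPKM at 1 hr (-0.56). *Atf3*, a stress- and growth factor-induced partner of JUN, was at 5.94 FPKM at 4 hr and 14.7 FPKM at 1 hr (-1.31). The median of the 9 tested members was -0.56, against -1.12 under PDGF + PD. *Myc*, *Srf* and the mRNA decay factor *Zfp36* also lay within 1.5-fold, with log2 ratios of 0.29, 0.05 and -0.12. Relatives of *Zfp36* did so too, *Zfp36l1* at -0.47 and *Zfp36l2* at -0.44, and the median of these 3 was -0.44. *Myc* was at 11.8 FPKM at 4 hr and 9.67 FPKM at 1 hr.

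Feedback genes of MAP kinase and receptor signaling were covered by 3 lists, to be read against 10.4% of all genes past 1.5-fold. Of 10 MAP kinase phosphatases, which switch MAP kinases off, *Dusp10*, *Dusp5* and *Dusp9* were lower, with log2 ratios of -0.95, -0.79 and -0.61, and *Dusp8* was higher (0.68). *Dusp10*, which the study describes as specific for JNK, was at 3.69 FPKM at 4 hr and 7.12 FPKM at 1 hr. *Dusp9* passed the minimum of 1 FPKM through the 1 hr column only. *Dusp6*, which acts on ERK, lay within 1.5-fold at 12.1 FPKM at 4 hr and 16.2 FPKM at 1 hr. *Errfi1*, an inhibitor of the EGF receptor, was the 1 lower gene of 13 in the Sprouty and Spred list (5.45 FPKM at 4 hr and 9.56 FPKM at 1 hr). The ERK-responsive ETV factors gave 0 calls of 3 and a median of -0.26, with *Etv5* at 13.6 FPKM at 4 hr and 16.2 FPKM at 1 hr, whereas with PD *Etv5* was at 0.492 FPKM at 4 hr and 5.56 FPKM at 1 hr (-3.50).

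In the sterol and fatty acid synthesis list, 11 of 35 tested genes were lower at 4 hr (5.51% of all genes were) and none was higher (4.91% of all genes). Windows of 3 of them are shown for CCAAT, the box bound by NF-Y, which works together with SREBP at such promoters. The box is in capitals on either strand. They are again the 250 bases before the RefSeq start (GRCm38.p6), from chr10:76531355-76531604 (plus strand, *Lss*), chr5:4104698-4104947 (minus strand, *Cyp51*) and chr5:28071162-28071411 (plus strand, *Insig1*).
Lss: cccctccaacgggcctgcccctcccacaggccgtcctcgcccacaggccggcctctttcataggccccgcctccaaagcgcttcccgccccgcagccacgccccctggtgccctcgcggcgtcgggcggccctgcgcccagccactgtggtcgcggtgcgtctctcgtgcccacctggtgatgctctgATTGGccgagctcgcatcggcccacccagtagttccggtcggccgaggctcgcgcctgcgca
Cyp51: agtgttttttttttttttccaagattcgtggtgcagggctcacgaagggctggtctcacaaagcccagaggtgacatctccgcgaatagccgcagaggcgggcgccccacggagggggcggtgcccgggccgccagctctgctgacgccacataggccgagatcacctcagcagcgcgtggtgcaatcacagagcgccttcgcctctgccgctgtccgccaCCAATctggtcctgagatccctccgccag
Insig1: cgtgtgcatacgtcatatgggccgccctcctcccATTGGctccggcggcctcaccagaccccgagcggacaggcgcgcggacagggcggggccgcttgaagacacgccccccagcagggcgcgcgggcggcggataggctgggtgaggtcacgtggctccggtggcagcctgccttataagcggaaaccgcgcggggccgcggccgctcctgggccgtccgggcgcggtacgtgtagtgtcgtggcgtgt
CCAAT was found in the windows of 22 of 26 genes of the list with a RefSeq window (84.6%), against 41.1% of all genes with one. TCACNCCAC, a form of the site that SREBP binds, was found in 1 of the 26 (3.85%), against 1.44% of all genes.

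Of the 35 tested members of this list 33 had a ratio below 1, and the median log2 ratio was -0.49. *Elovl6*, a fatty acid elongase, was at 5.18 FPKM at 4 hr against 13.9 FPKM at 1 hr (-1.42). *Lss*, which makes lanosterol, the first sterol of the pathway, was at 11.9 FPKM at 4 hr and 26.7 FPKM at 1 hr (-1.17). *Cyp51*, which demethylates lanosterol, was at 39.9 FPKM at 4 hr and 66.3 FPKM at 1 hr (-0.73), and *Insig1*, the sterol sensor that holds SREBP in the endoplasmic reticulum, at 23.2 FPKM at 4 hr and 41.4 FPKM at 1 hr (-0.84). *Acat2*, which joins acetyl-CoA units at the start of the pathway, was at 14.2 FPKM at 4 hr and 24.2 FPKM at 1 hr (-0.77), and *Dhcr7*, its last enzyme, at 11.1 FPKM at 4 hr and 18.9 FPKM at 1 hr (-0.77). The enzymes *Hsd17b7*, *Idi1*, *Nsdhl*, *Sqle* and *Msmo1*, which act between them, were the other 5, with log2 ratios between -0.73 (*Hsd17b7*) and -0.63 (*Msmo1*).

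*Hmgcs1*, an SREBP target and an early enzyme of cholesterol synthesis, lay within 1.5-fold, at 66.9 FPKM at 4 hr and 99.4 FPKM at 1 hr (1.49-fold lower). Fatty acid synthase, *Fasn*, was at 21.8 FPKM at 4 hr and 27.5 FPKM at 1 hr (-0.34), and the SREBP genes *Srebf1* (-0.36) and *Srebf2* (-0.27) were within it too. At 4 hr with PDGF alone *Lss* was at 78.9 FPKM and *Hmgcs1* at 234 FPKM. The list's median was -0.11 under PDGF + PD (0 higher and 2 lower of 36), -0.39 under FGF + LY (0 and 14 of 36) and -0.11 under FGF + PD (0 and 4 of 36), and the differences between these comparisons were not tested.

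**Figure D3:**
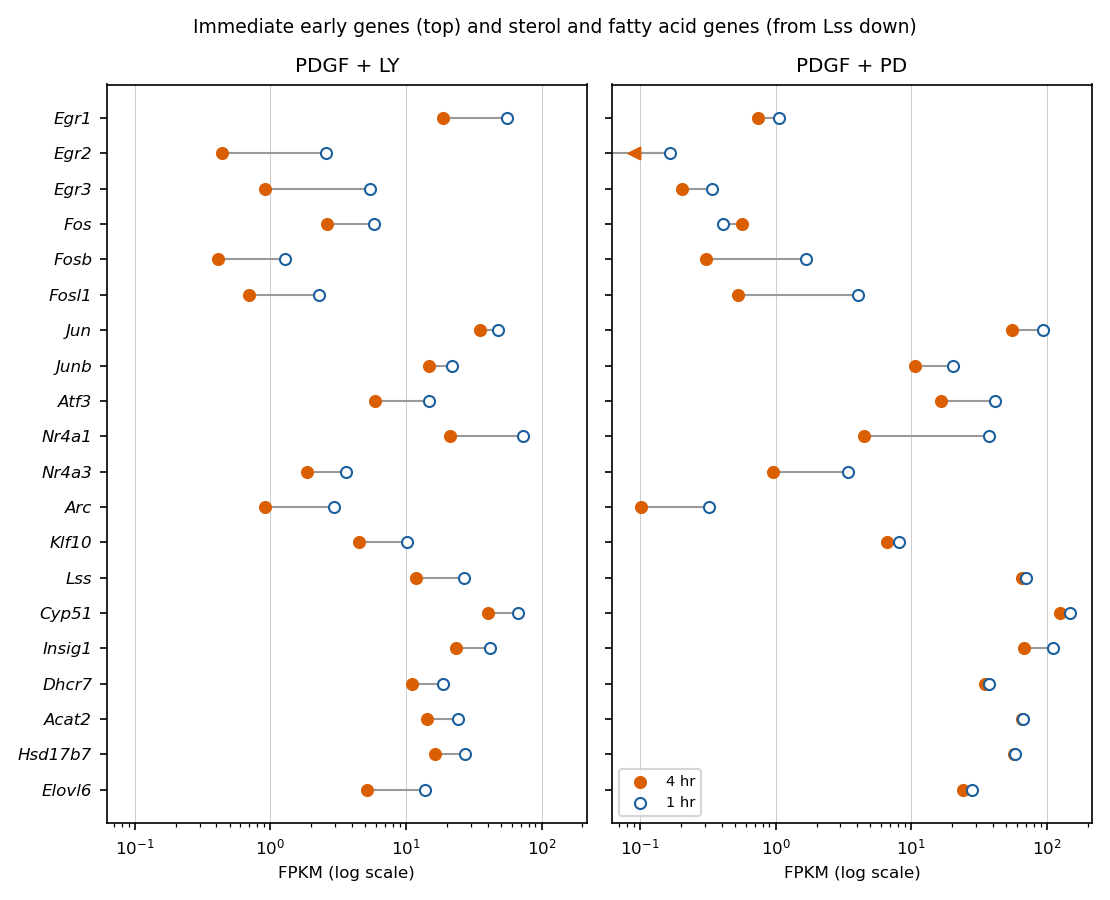
FPKM (log scale) of 13 immediate early genes and 7 sterol and fatty acid genes at 4 hr (filled) and 1 hr (open) under PDGF + LY (left) and PDGF + PD (right), each point 1 pooled value and the triangle a gene listed at 0. Under PDGF + LY every gene shown had its lower FPKM at 4 hr, but the genes were chosen with their values known, so this shared direction is not a result. Under PDGF + PD *Lss* was at 65.3 FPKM at 4 hr and 69.5 FPKM at 1 hr, and *Insig1* at 67.4 FPKM at 4 hr and 112 FPKM at 1 hr.

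Interferon-stimulated genes, which cells use against viruses, were lower at 4 hr in 5 of 15 cases, beside 5.51% of all genes, with 0 higher, beside 4.91%, and a median of -0.51. Windows of *Isg15* and *Ifit1* are shown for the core of the interferon-stimulated response element (ISRE), which interferon regulatory factors bind, in capitals on either strand. They are the 250 bases before the RefSeq start (GRCm38.p6), from chr4:156200819-156201068 (minus strand, *Isg15*) and chr19:34640639-34640888 (plus strand, *Ifit1*).
Isg15: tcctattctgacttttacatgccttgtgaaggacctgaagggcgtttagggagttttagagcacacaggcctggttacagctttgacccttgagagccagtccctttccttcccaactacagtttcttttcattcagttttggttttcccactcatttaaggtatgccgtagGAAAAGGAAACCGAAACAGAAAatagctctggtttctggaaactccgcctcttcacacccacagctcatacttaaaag
Ifit1: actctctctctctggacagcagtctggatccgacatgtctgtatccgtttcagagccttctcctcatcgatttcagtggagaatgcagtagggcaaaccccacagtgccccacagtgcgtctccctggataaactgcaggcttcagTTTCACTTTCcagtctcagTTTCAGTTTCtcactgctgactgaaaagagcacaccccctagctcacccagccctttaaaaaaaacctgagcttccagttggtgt
The ISRE core was found in 8 of 13 genes of the list with a window (61.5%), against 3.99% of all genes with one, with 3 overlapping matches in *Isg15*. *Isg15*, a ubiquitin-like protein, was at 3.31 FPKM at 4 hr and 8.83 FPKM at 1 hr (-1.42). *Ifit1*, which binds viral RNA, was at 1.53 FPKM at 4 hr and 4.54 FPKM at 1 hr (-1.57), and *Ifit3* at 0.534 FPKM at 4 hr and 1.68 FPKM at 1 hr (-1.65). *Oasl2* and *Mx2* were the other 2, with log2 ratios of -0.83 and -0.74. Of these 5, *Ifit3* and *Mx2* passed the minimum of 1 FPKM through the 1 hr column only. In the other comparisons the median of the list was also below 0, at -0.20 under PDGF + PD, -0.88 under FGF + LY and -1.14 under FGF + PD.

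Of 28 genes that make ribosomes, 6 were lower and 0 higher (5.51% and 4.91% of all genes), 26 had a ratio below 1, and the median was -0.41. *Fbl*, the methyltransferase of box C/D small nucleolar RNPs, was at 4.36 FPKM at 4 hr and 8.02 FPKM at 1 hr (-0.88). *Dkc1*, the pseudouridine synthase of box H/ACA RNPs, was at 4.52 FPKM at 4 hr and 7.55 FPKM at 1 hr (-0.74), and the nucleolar GTPase *Gnl3* at 18.2 FPKM at 4 hr and 30.2 FPKM at 1 hr (-0.73). The assembly factors *Wdr12*, *Utp20* and *Rrp9* completed the set, with log2 ratios of -0.70, -0.64 and -0.60. The median was -0.37 under PDGF + PD, 0.40 under FGF + LY and -0.03 under FGF + PD. Genes of the ribosomal proteins themselves gave 1 higher and 1 lower of 26, but have many near-identical copies and their values are uncertain.

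DNA replication genes gave 1 higher and 5 lower of 27, beside 4.91% and 5.51% of all genes, and a median of -0.22. Among the subunits of the MCM helicase, *Mcm3* was at 3.75 FPKM at 4 hr and 6.98 FPKM at 1 hr (-0.90), *Mcm2* at 6.17 FPKM at 4 hr and 10.4 FPKM at 1 hr (-0.76), and *Mcm5* at 3.28 FPKM at 4 hr and 5.35 FPKM at 1 hr (-0.71). The DNA polymerase subunit *Pola1* (-0.91) and the repair enzyme *Ung* (-0.78) were lower as well, and the GINS subunit *Gins1* was higher (0.68). *Ung* passed the minimum of 1 FPKM through the 1 hr column only. None of 24 genes of G2/M and mitosis was past 1.5-fold, with a median of -0.01.

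Wnt pathway genes gave 2 higher and 7 lower of 23 (4.91% and 5.51% of all genes) and a median of -0.26. *Rspo2*, a secreted ligand that strengthens Wnt signaling, was at 13.0 FPKM at 4 hr against 42.5 FPKM at 1 hr (-1.70). Under PDGF + PD it ran the other way, at 97.0 FPKM at 4 hr and 53.9 FPKM at 1 hr (0.85), and with PDGF alone its 4 hr level was 18.9 FPKM. The ligand *Wnt11* was at 0.776 FPKM at 4 hr and 2.35 FPKM at 1 hr (-1.60) under PDGF + LY, and at 5.15 FPKM at 4 hr and 1.67 FPKM at 1 hr (1.62) under PDGF + PD. *Nkd1*, an inhibitor that Wnt signaling induces, was at 1.64 FPKM at 4 hr and 2.81 FPKM at 1 hr (-0.78) with LY and at 7.05 FPKM at 4 hr and 3.92 FPKM at 1 hr (0.84) with PD. The antagonists *Dkk2* (-0.82) and *Sfrp2* (-0.65) and the ligands *Wnt2* (-0.73) and *Wnt5b* (-0.67) were lower. The ligand *Wnt9a* was higher, at 41.8 FPKM at 4 hr and 25.4 FPKM at 1 hr (0.72), as was the weakly expressed *Rspo1* (1.23). Under PDGF + LY, *Wnt11* passed the minimum of 1 FPKM through the 1 hr column only, and *Rspo1* through the 4 hr column only.

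A further 6 list members differed by 1.5-fold or more in opposite directions with the 2 inhibitors. Of all genes called under PDGF + LY, 20 of the 573 higher (3.49%) were lower under PDGF + PD, where 3.26% of all genes tested in both were lower. Of the 642 lower, 79 (12.3%) were higher there, as were 7.35% of all genes. *Txnip*, an inhibitor of thioredoxin and of glucose uptake, was at 70.6 FPKM at 4 hr and 109 FPKM at 1 hr with LY, and at 17.8 FPKM at 4 hr and 7.0 FPKM at 1 hr with PD. *Igfbp5*, which binds insulin-like growth factors, was at 19.5 FPKM at 4 hr and 34.0 FPKM at 1 hr with LY and at 44.9 FPKM at 4 hr and 24.0 FPKM at 1 hr with PD. *Cdkn1c*, a cyclin-dependent kinase inhibitor, was at 57.4 FPKM at 4 hr and 86.3 FPKM at 1 hr with LY and at 108 FPKM at 4 hr and 71.6 FPKM at 1 hr with PD, at the edge of the rule in both. The ligand *Fgf2* ran in the reverse sense, at 6.05 FPKM at 4 hr and 3.87 FPKM at 1 hr with LY and at 3.28 FPKM at 4 hr and 5.22 FPKM at 1 hr with PD. *Rgs5*, a regulator of G protein signaling (-0.84 with LY, 0.94 with PD), and the ribosomal protein gene *Rps16* (1.06 with LY, -0.75 with PD) were weakly expressed. The difference between the inhibitors was not tested for any of them.

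**Figure D4:**
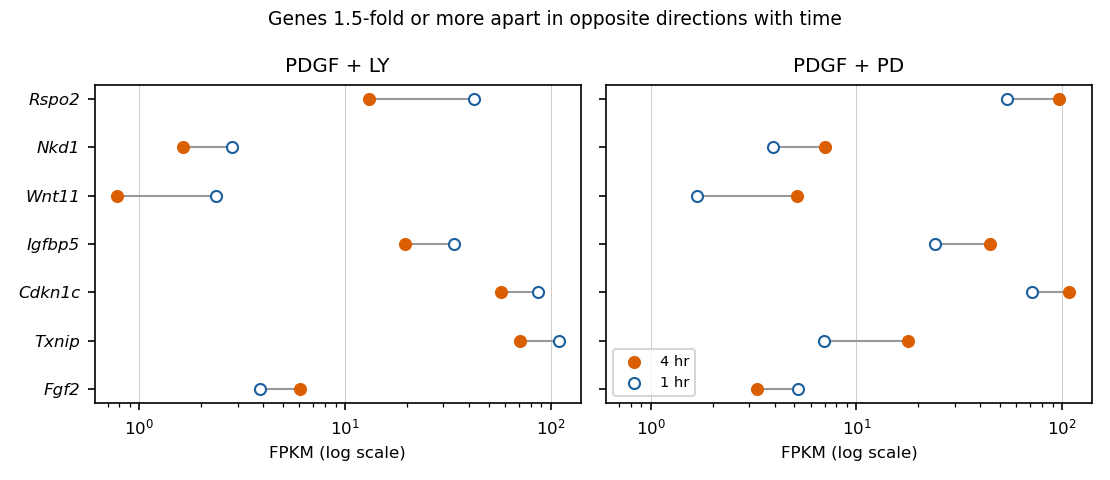
FPKM (log scale) of 7 list members at 4 hr (filled) and 1 hr (open) under PDGF + LY (left) and PDGF + PD (right), each point 1 pooled value. *Fgf2* was higher at 4 hr with LY and lower with PD, and the other 6 genes were lower at 4 hr with LY and higher with PD, *Rspo2* at 13.0 FPKM at 4 hr and 42.5 FPKM at 1 hr with LY and at 97.0 FPKM at 4 hr and 53.9 FPKM at 1 hr with PD.

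Further calls were of single secreted and signaling genes. The list counts given with them are to be read against 4.91% of all genes higher and 5.51% lower. *Adamts1*, a matrix protease, was at 20.9 FPKM at 4 hr and 62.7 FPKM at 1 hr (-1.58), and at 99.1 FPKM at 4 hr with PDGF alone. *Plaur*, the urokinase receptor, was at 5.22 FPKM at 4 hr and 11.0 FPKM at 1 hr (-1.07), and of 20 protease, inhibitor and hyaluronan genes 4 were lower and 0 higher. *Id3*, an inhibitor of basic helix-loop-helix factors that BMPs induce, was at 41.2 FPKM at 4 hr and 78.8 FPKM at 1 hr (-0.94), and its relative *Id1* at 12.4 FPKM at 4 hr and 23.6 FPKM at 1 hr (-0.92). *Id3* was also lower with time under PDGF + PD (-0.63), FGF + LY (-2.47) and FGF + PD (-1.19). *Id1* was lower under FGF + PD (-1.22) and within 1.5-fold under PDGF + PD (-0.50) and FGF + LY (-0.49). The BMP receptor *Bmpr1b* was lower (-1.27) and the BMP antagonist *Nog* was higher (0.65), of 21 genes in that list with 1 higher and 3 lower. *Bmpr1b* passed the minimum of 1 FPKM through the 1 hr column only. In the Notch pathway the glycosyltransferase *Lfng* was lower (-1.37) and the target *Hey2* was higher (0.82). *Ldb2*, a cofactor of LIM domain factors, was at 1.19 FPKM at 4 hr and 5.88 FPKM at 1 hr (-2.31), and *Csgalnact1*, which starts chondroitin chains, at 1.80 FPKM at 4 hr and 6.08 FPKM at 1 hr (-1.76). The repulsive cue *Sema3a* (-0.71) and the retinoic acid-binding protein *Crabp1* (-0.63) were also lower.

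Among the genes that were higher at 4 hr, 4 that respond to stress are described first, 3 of them from the ATF4 list. Of the 28 genes of that list 3 were higher and 1 lower (4.91% and 5.51% of all genes). *Chac1*, which degrades glutathione, was at 43.5 FPKM at 4 hr against 17 FPKM at 1 hr (1.35). *Trib3*, a pseudokinase that binds AKT, was at 39.3 FPKM at 4 hr and 17.1 FPKM at 1 hr (1.20). *Ddit4*, an inhibitor of mTOR complex 1, was at 50.8 FPKM at 4 hr and 25.8 FPKM at 1 hr (0.98), and *Sesn2*, another, at 58.3 FPKM at 4 hr and 35.6 FPKM at 1 hr (0.71). Under PDGF + PD these 4 lay within 1.5-fold, with *Chac1* at 55.0 FPKM at 4 hr and 53.5 FPKM at 1 hr. Under FGF + LY, *Trib3* (0.90) and *Ddit4* (1.11) were higher, while *Chac1* (0.01) and *Sesn2* (0.37) lay within 1.5-fold. With PDGF alone at 4 hr, *Chac1* was at 61.5 FPKM, *Trib3* at 66.1 FPKM, *Ddit4* at 84.7 FPKM and *Sesn2* at 59.0 FPKM. *Chac1*, *Trib3* and *Sesn2* are targets of the transcription factor ATF4, and the median of that list was -0.20.

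*Fgf18*, a growth factor of bone and palate mesenchyme, was at 28.1 FPKM at 4 hr and 12.4 FPKM at 1 hr (1.18) under PDGF + LY, and at 24.0 FPKM at 4 hr and 13.2 FPKM at 1 hr (0.86) under PDGF + PD. The YAP-TEAD targets *Amotl2* (214 FPKM at 4 hr, 142 FPKM at 1 hr) and *Ajuba* (0.66) were higher, 2 of 14 in that list. This count and those below are to be read against 4.91% of all genes higher and 5.51% lower. *Efna4*, a ligand of Eph receptors, was at 21.1 FPKM at 4 hr and 11.0 FPKM at 1 hr (0.93), and *Tfeb*, the factor that drives lysosome genes, at 3.30 FPKM at 4 hr and 1.68 FPKM at 1 hr (0.97) while the lysosome and autophagy list gave 1 higher and 0 lower of 28. *Ahdc1* (1.41), the NF-kappaB scaffold gene *Card10* (1.05) and *Sap30* (1.07), of the SIN3 deacetylase complex, were among the 15 highest ratios. By the same limits of 5 FPKM in the higher and 0.5 FPKM in the lower column, the histone gene *H4c17* had the highest, at 8.96 FPKM at 4 hr and 2.91 FPKM at 1 hr (1.62), and *H3c3* was also among the 15 (1.06). Histone genes as a group, chosen after their values were seen, gave 8 higher and 4 lower of 34, and since they have near-identical copies their values are uncertain.

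Of 23 genes of the inhibited PI3K, AKT and mTOR pathway 3 were higher (*Ddit4*, *Pik3cb* and *Pik3cd*) and 1 lower (*Sgk1*), with a median of 0.01, where 4.91% of all genes were higher and 5.51% lower. *Pik3cb*, a catalytic subunit of PI3K, was at 4.92 FPKM at 4 hr and 3.04 FPKM at 1 hr, and the kinase *Sgk1* at 17.5 FPKM at 4 hr and 26.6 FPKM at 1 hr. *Pik3cd* passed the minimum of 1 FPKM through the 4 hr column only. The joint list of FOXO targets and insulin pathway genes gave 0 higher and 2 lower of 28 (*Txnip* and *Igfbp5*). Its median was -0.04, with *Irs2* at -0.06 and *Pik3ip1* at -0.05. The receptor *Pdgfra* was at 5.27 FPKM at 4 hr and 7.59 FPKM at 1 hr and *Pdgfrb* at 65.3 FPKM at 4 hr and 66.5 FPKM at 1 hr, both within 1.5-fold. Palatal shelf transcription factors gave 1 higher and 1 lower of 32, and collagens and other matrix genes gave 0 of 25. Across the 42 pathway lists, 5 had a median of -0.3 or lower and 0 a median of 0.3 or higher, a size chosen after the values were seen, while the median of all genes was -0.01. The 5 were AP-1, interferon-stimulated genes, sterol and fatty acid synthesis, the *Zfp36* family and ribosome biogenesis. The 8 reference genes tested had a median of -0.20, with 6 ratios below 1 and none past 1.5-fold.

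**Figure D5:**
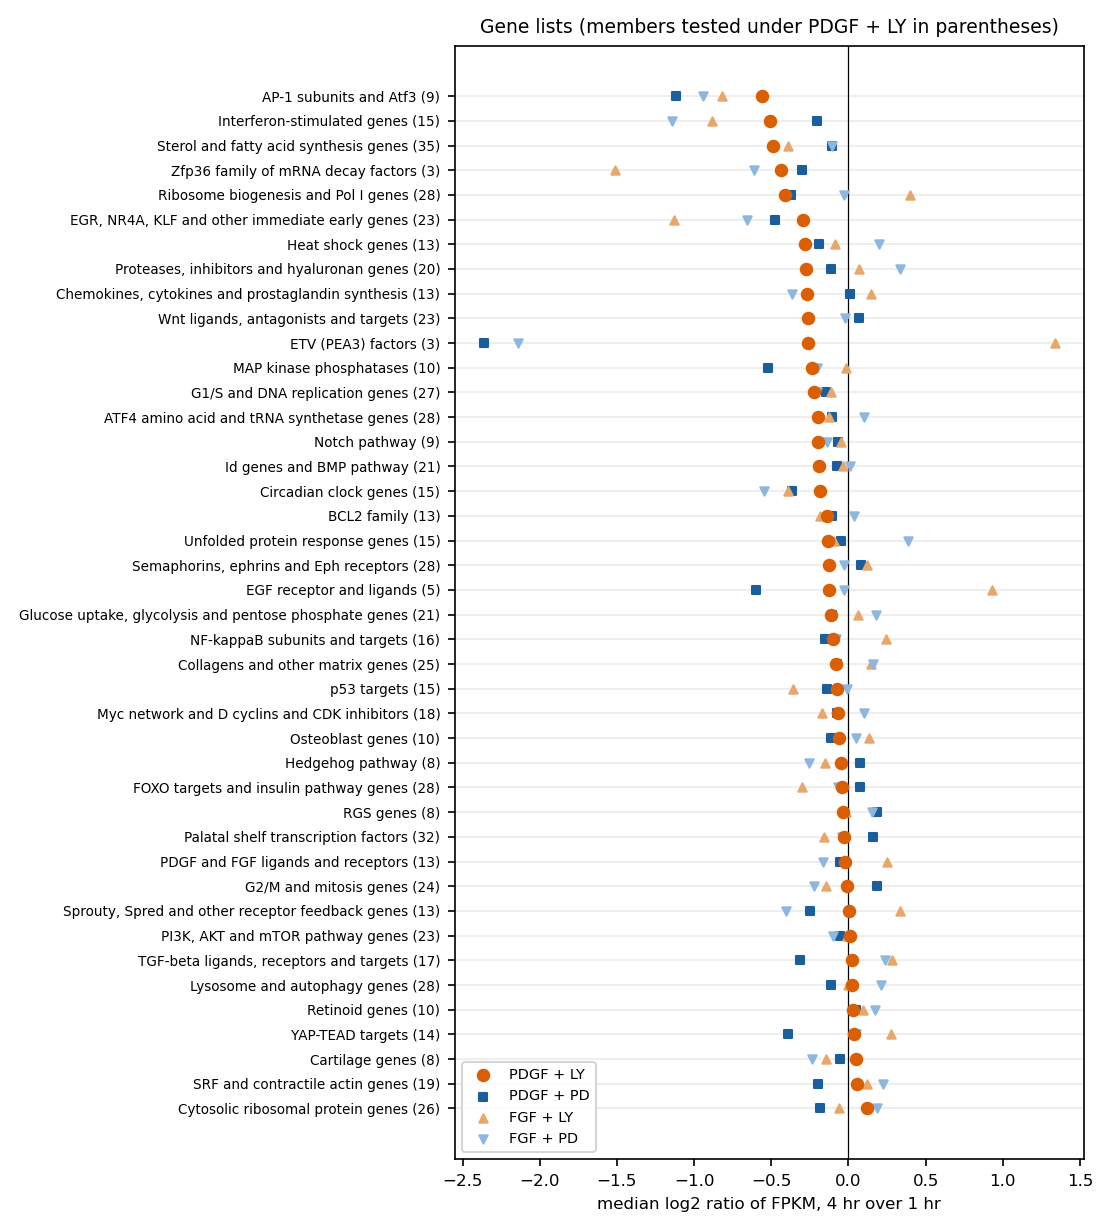
Median log2 ratio of FPKM, 4 hr over 1 hr, of the members of each of 42 gene lists in the 4 comparisons with time, with the number of members tested under PDGF + LY in parentheses. Under PDGF + LY the lowest medians were those of AP-1 (-0.56), interferon-stimulated genes (-0.51) and sterol and fatty acid synthesis (-0.49), and none reached 0.3.

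The calls were then set beside those of the other 3 comparisons with time, which share no sample with PDGF + LY. Independent litters were used per set of replicates, so samples of different conditions may share litters, and these comparisons are not known to be independent. Of the 642 genes lower at 4 hr under PDGF + LY, 318 (49.5%) were also lower under FGF + LY, where 11.6% of all genes tested in both were lower, and these were 22.4% of the 1422 calls there. For PDGF + PD the number was 87 (13.6%, against 3.26% of all genes, and 20.3% of 429 calls), and for FGF + PD it was 189 (29.4%, against 9.21%, and 16.3% of 1163 calls). Of the 573 genes higher at 4 hr, 203 (35.4%, against 10.8% of all genes) were also higher under FGF + LY, 148 (25.8%, against 7.35%) under PDGF + PD and 67 (11.7%, against 3.85%) under FGF + PD, which were 15.2% of 1337, 15.1% of 977 and 12.9% of 521 calls. Calls in the opposite direction were made as well, to be read against the shares of all genes given here for each direction. Of the 642 lower genes, 34 (5.3%) were higher under FGF + LY, 79 (12.3%) under PDGF + PD and 38 (5.92%) under FGF + PD. Of the 573 higher genes, 56 (9.77%) were lower under FGF + LY, 20 (3.49%) under PDGF + PD and 80 (14%) under FGF + PD, the last being more than the 67 that were higher there. The counts that follow apply the size rule in the other 3 comparisons without the minimum of 1 FPKM there. A total of 40 genes were lower and 12 were higher in all 4 comparisons. All 15 of the lowest ratios under PDGF + LY were lower under FGF + LY as well, 12 under FGF + PD and 5 under PDGF + PD, where *Rspo2* was higher. Among these 15, *Egr3* was below 1 FPKM at both times under FGF + PD and under PDGF + PD. Of the 15 highest ratios, 7 were also higher under FGF + LY, 5 under PDGF + PD and 1 under FGF + PD, while 2 were lower under FGF + LY, 1 under PDGF + PD and 1 under FGF + PD. The sex-linked transcripts differed the same way in all 4 comparisons, and their part in these shares was not tested.

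The genes called also differed a little in composition. The median GC content of the longest transcript was 51.6% for genes higher at 4 hr and 48.7% for genes lower, beside 49.6% for all genes tested. Whether this composition bears on the calls was not tested.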

How the data were processed

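Poly-A RNA-seq of MEPM cells was used, in 22 samples of 10 conditions. Per the submitters' processing notes, the authors used CASAVA, TopHat and Cuffdiff with mm10, versions not given in the sources used here. The deposited FPKM values are pooled over the samples of a condition by the authors, so 1 value was read per gene and condition, from 23286 entries. The table gives no counts, and 3 columns of another series were not used. In values up to 0.06 FPKM, 113 of 208 entries lay at 1 of 4 steps (tolerance 0.03 in log2), as whole fragments from 2 samples of unequal depth would give. The samples would differ 1.63-fold in depth at 4 hr and 1.24-fold at 1 hr. The precision of single values is unknown.

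Symbols came from RefSeq accessions (GRCm38.p6), and 22749 entries had 1 symbol. Log2 ratios, 4 hr over 1 hr, were taken without a pseudocount among genes with FPKM above 1 in either column, called at 1.5-fold, and limited to 5 in size for medians. The members and the 50 gene lists were chosen with earlier results of these data known. Genes named were 12 early response genes of the study, the 15 highest and 15 lowest ratios with at least 5 FPKM in the higher and 0.5 FPKM in the lower column, up to 6 members per list, and list members opposite under the inhibitors. Others, such as *Hmgcs1*, *Nr4a3*, *Wnt9a* and the markers, were added after their values were seen. Calculations used Python 3.11.15, pandas 2.3.3, NumPy 2.4.6 and matplotlib 3.10.9. The procedure was run on simulated data with planted changes larger than 1.5-fold in genes above 5 FPKM. That run checks the calculation only and does not bear on how reliable the calls are.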

Additional observations from a re-analysis of the deposited data

Results flagged for a closer look

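A difference between the inhibitors drew attention to 7 list members with at least 5 FPKM in 1 of the 4 PDGF columns, because their 1.5-fold or larger differences with time ran in opposite directions with LY and with PD. The log2 ratios, 4 hr over 1 hr, under PDGF + LY were -1.70 for *Rspo2*, -1.60 for *Wnt11*, -0.802 for *Igfbp5*, -0.781 for *Nkd1*, -0.629 for *Txnip*, -0.589 for *Cdkn1c* and 0.645 for *Fgf2*. Under PDGF + PD they were 0.85 for *Rspo2*, 1.62 for *Wnt11*, 0.90 for *Igfbp5*, 0.84 for *Nkd1*, 1.34 for *Txnip*, 0.59 for *Cdkn1c* and -0.67 for *Fgf2*. Of all 573 genes higher under PDGF + LY, 20 (3.49%) were lower under PDGF + PD, beside 3.26% of all genes tested in both, and of all 642 lower, 79 (12.3%) were higher, beside 7.35%. The ratio of *Cdkn1c* fell within 1.5-fold under PDGF + LY with the columns rescaled to a median ratio of 1 (-0.58). Each value is 1 pooled ratio, and the difference was not tested. *Txnip* also differed in level, at 70.6 FPKM at 4 hr and 109 FPKM at 1 hr with LY and 17.8 FPKM at 4 hr and 7.0 FPKM at 1 hr with PD.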

How the results depend on the processing

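The counts of genes past the size rule depended on that rule and on weakly expressed genes. A 2-fold rule gave 121 genes higher and 201 lower at 4 hr, a pseudocount of 1 FPKM gave 228 and 340, a minimum of 5 FPKM gave 203 and 269, and no minimum gave 1133 and 1558, beside the reported 573 and 642. A pseudocount of 0.1 FPKM (533 and 605), rescaling to a median ratio of 1 (587 and 630) and leaving out small RNAs (561 and 624) kept both counts within 1.5 times. So did leaving out the genes placed on X or Y (557 and 609), an alternative chosen after seeing the data. No direction was reversed among the 285 named genes with a finite ratio under either pseudocount or rescaling, and 14 of them moved by more than 1.5-fold with a pseudocount of 1 FPKM. No list median moved that far, but of the 98 counts of list members higher or lower, 36 moved by more than 1.5 times with the 2-fold rule, 26 with the minimum of 5 FPKM, 22 with a pseudocount of 1 FPKM and 1 with rescaling, where *Cdkn1c* was no longer past 1.5-fold. With the 2-fold rule the lower members numbered 2 in place of 11 for sterol and fatty acid synthesis, 0 in place of 6 for ribosome biogenesis, and 0 in place of 5 for DNA replication. With the minimum of 5 FPKM they numbered 1 in place of 5 for interferon-stimulated genes and 2 in place of 4 for AP-1. For the EGR, NR4A and KLF list they numbered 5 in place of 8 with that minimum. No paired analysis was possible because the table holds 1 pooled value per condition, and samples could not be left out in turn for the same reason. With no counts and no spread between samples, differences near the minimum of 1 FPKM carry the least certainty, and time and the embryos sampled cannot be told apart.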
